A study of Drosophila melanogaster with 3 samples.

Results

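Translation factor genes were taken as the protein-coding genes whose symbol in the Ensembl BDGP 6.54 annotation starts with eIF, eEF or eRF. They numbered 54 of 13968 protein-coding genes, 44 of them initiation factor genes (eIF) and 10 elongation or release factor genes (eEF and eRF). Where the protein of CG12219, a gene with no name beyond its annotation number, was found along Drosophila melanogaster chromatin was read by chromatin immunoprecipitation and sequencing (ChIP-seq). The embryos came from a transgenic fly line that stably carries CG12219 with GFP on its C-terminus. They were whole embryos aged 0 to 18 h, males and females pooled, and so a mixture of all embryonic tissues. The data formed 1 group of 3 biological replicates with no second condition, no immunoprecipitation from untagged embryos or with a mock antibody was analysed here, and the promoter that drives the fusion is not known from the labels. A line of text in the labels names the samples as input, but their antibody, assay, control and peak lists are those of immunoprecipitations, and they were read as such.

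Each replicate had a list of 30000 calls, as did the 3 replicates pooled. Of the pooled calls, 4187 passed the irreproducible discovery rate (IDR) step, which compares ranks between replicates. The start-site peaks of translation factor genes had the same rank in the IDR and pooled lists, down to rank 4168. The IDR list thus followed pooled signal to that rank, and a peak in it need not be called in every replicate. The replicate and pooled lists include background calls, so a call of low rank in them is not by itself a binding site. Calls were ranked within each list by the authors' signal value, rank 1 being the highest, and no read counts were at hand, so sequencing depth is unknown. A gene was counted as having a peak when a summit lay within 500 bp of any of its transcription start sites (TSS). Negative distances are upstream of the TSS along the gene's own strand. All coordinates are those of dm6. The 3 replicates shared no identical interval.

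Translation factors carry the ribosome through its cycle on an mRNA. Initiation factors load the initiator tRNA, bind the cap, unwind the leader and join the subunits, elongation factors bring in aminoacyl-tRNAs and move the ribosome along, and release factors free the finished protein at a stop codon. In early fly embryos, which run on maternal mRNA, repressors that act through the cap-binding proteins set where several patterning mRNAs are translated.

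CG12219-GFP peaks lay at the start sites of 14 of the 54 translation factor genes, or 25.9%, against 14.3% of all protein-coding genes. Among the initiation factor genes 10 of 44 (22.7%) had a peak, and among the elongation and release factor genes 4 of 10 (40%), all 4 being elongation factors. The cytosolic ribosomal protein genes stood far above both, with 69 of 92 (75.0%), and the mitochondrial ribosomal protein genes had 15 of 73 (20.5%). Genes with more start sites have more chances to count. Of the 32 translation factor genes with 1 TSS, 6 (18.8%) had a peak against 9.79% of all protein-coding genes with 1 TSS. Of the 22 with more, 8 (36.4%) had a peak against 26.8%. In the 2093 IDR peaks of highest signal, 9 translation factor genes (16.7%) had a peak, against 7.84% of all protein-coding genes.

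**Figure D1:**
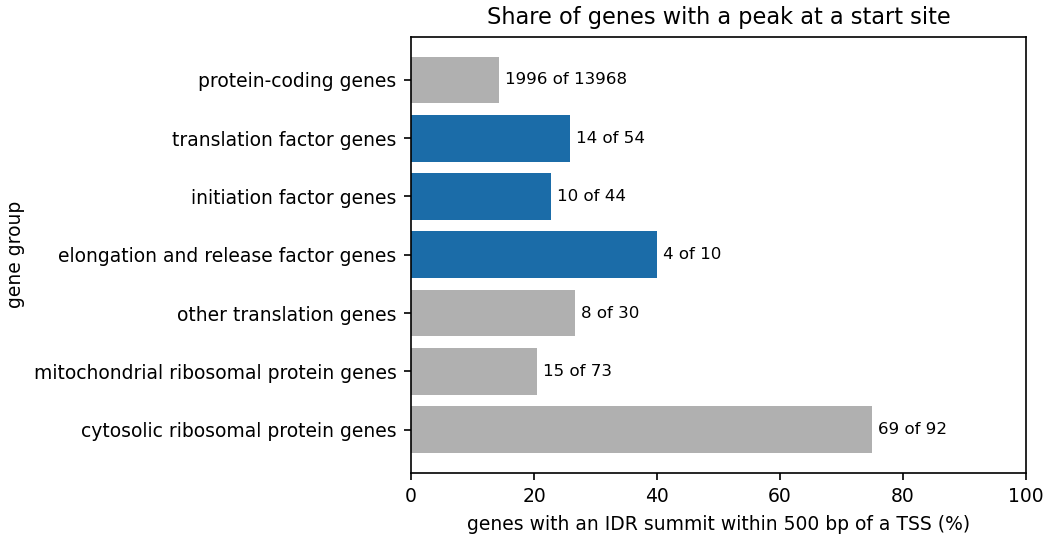
Share of genes, in percent, with an IDR summit within 500 bp of a TSS in each gene group, with the counts beside the bars. Blue bars are all 54 translation factor genes and their initiation and elongation or release subsets, which lie between the 14.3% of all protein-coding genes and the 75.0% of cytosolic ribosomal protein genes.

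Peaks lay at eIF4EHP and eIF4A, whose proteins act at the cap and on the leader of the mRNA. The peak of eIF4EHP, whose protein binds the cap without recruiting eIF4G and so represses mRNAs such as caudal in the early embryo, had IDR rank 138 (3R, 24109014 to 24109377). It ranked 224, 84 and 262 in replicates 1, 2 and 3, so it was high in all 3 and highest in replicate 2. Its summit lay at -221 bp from the eIF4EHP start site and at -155 bp from that of CG18428, which runs the other way from a TSS 376 bp off, so the peak cannot be given to 1 of the pair. The sequence within 50 bp of this summit was 77.2% A+T, the highest among the 14 peaks. The DEAD-box helicase gene eIF4A, whose protein unwinds the mRNA leader, had the lowest rank of the 14, 3460 (2L, 5981500 to 5981889), at -69 bp. That peak ranked 3459, 3985 and 2852 in the replicates. A further eIF4A peak of rank 4168 (2L, 5982303 to 5982692) lay in the gene at -96 bp from another of its start sites and ranked 3910, 4303 and 5399.

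Among the factors that place the ribosome at the start codon, eIF1, eIF5B, eIF2D and eIF2beta had peaks. The summit counted for eIF1, which guards start codon choice, had rank 544 (3L, 3222882 to 3223099) and ranked 430, 919 and 371 in the replicates. It lay at -359 bp from the eIF1 start site but at -22 bp from that of RpL28, a ribosomal protein gene on the other strand whose TSS is 381 bp from that of eIF1. A small nucleolar RNA gene, snoRNA:Or-CD11a, was also within reach, at -441 bp. The gene of the subunit-joining GTPase eIF5B had a peak of rank 1076 (3L, 3460545 to 3460934) at -137 bp, inside an annotated 5′ UTR of a longer transcript of the gene. It ranked 1348, 1100 and 1342. eIF2D, whose protein can deliver initiator tRNA without eIF2, had rank 1884 (3R, 29151736 to 29152125) at -137 bp, with 71.3% A+T around the summit. Its ranks were 3413, 1725 and 1761, so replicate 1 was the low one. eIF2beta, a subunit of the complex that carries initiator tRNA, had rank 2609 (3L, 12526788 to 12527177) at -252 bp, and ranked 3670, 2634 and 2085. The peaks of eIF5B, eIF2D and eIF2beta had no other gene's TSS within 500 bp of the summit.

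The eIF3 complex, the scaffold that holds the small subunit to the mRNA, had peaks at 3 of its 16 genes (18.8%), near the 14.3% of all protein-coding genes. The summit at eIF3a, the gene of its large scaffold subunit, had rank 2735 (3R, 4433734 to 4434123) and lay between 2 divergent start sites 70 bp apart, at -34 bp from eIF3a and -36 bp from CG1074. It ranked 4695 and 3104 in replicates 1 and 2 and was not called in replicate 3. Gene eIF3h had 2 peaks, and each was missing from 1 replicate. The stronger, of rank 1214 (2L, 5052363 to 5052557), was intronic at +303 bp, ranked 859 and 1237 in replicates 2 and 3 and had no counterpart in replicate 1. The other, of rank 2718 (2L, 5052520 to 5052909), lay at +65 bp, ranked 3216 and 2215 in replicates 1 and 2 and had none in replicate 3. The start site of senju lies 63 bp from that of eIF3h on the other strand, which puts the stronger summit at -366 bp from it. A counterpart is the nearest replicate summit within 250 bp.

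The strongest peak of each elongation factor gene with a peak lay at the start site itself. The eEF1gamma gene, for a subunit of the exchange factor that recharges eEF1alpha with GTP, had the strongest of them, of rank 260 (3R, 29219984 to 29220293), and no other gene shared it. Its summit lay at -12 bp in the IDR list and at -1, 0 and -31 bp in replicates 1, 2 and 3. It ranked 119, 616 and 167, so replicate 2 was lowest. The gene of the translocase eEF2 had a peak of rank 1130 (2L, 21682067 to 21682250) at -10 bp, with replicate summits at -20, -13 and -21 bp. Its ranks were 866, 1350 and 838, replicate 2 again being lowest.

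The sequences at these peaks were read from the RefSeq genome of the same build. The DNA replication-related element (DRE, TATCGATA, which is its own reverse complement) is bound by DREF and is common at fly housekeeping promoters. It stood within 100 bp of the summit at 5 of the 14 peaks (35.7%), at 26.1% of the 69 ribosomal protein gene peaks and at 4.08% of the 1521 start-site peaks of protein-coding genes. The eIF1 peak counts in both the 14 and the 69, as it is also that of RpL28. Of the 5, the 4 below are shown 5′ to 3′ with the element in capitals. They are eEF1gamma (chr3R:29220121-29220148, plus strand), eIF1 (chr3L:3223035-3223062, plus strand), eIF3a (chr3R:4433916-4433943, minus strand) and eIF4A (chr2L:5981702-5981729, plus strand). At eIF3a the element stood on the summit, and at the others -26, 66 and 20 bp from it along the gene.
eEF1gamma: gcctaggaaaTATCGATAtatcgccgta
eIF1: gcagggcaacTATCGATAagcatttcgt
eIF3a: cggcctgaacTATCGATAacgcagccag
eIF4A: gcgatcgatcTATCGATAgtcgctaatg
The DRE was about as frequent in translation factor promoters with and without a peak. In the 300 bp promoter, from 250 bp upstream to 50 bp downstream of the TSS with most transcripts, it was found in 4 of the 14 (28.6%) and in 11 of the 40 without an IDR peak (27.5%), against 9.23% of all protein-coding promoters. The eIF1 promoter held none, so the match shown for eIF1 lies outside that window. A match describes the letters and not a bound site.

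Ribosomal protein genes of the fly start at a TCT initiator, a pyrimidine run at the TSS, and 47.8% of their 92 start sites held CTTT with its C within 5 bp of the TSS on the gene's strand. Of the translation factor genes 5 of 54 did (9.26%), close to the 5.63% of all protein-coding genes. They were eEF1alpha1, eEF2, eIF4A, eIF3f1 and eIF3i, and the first 3 had an IDR peak. In all 5 the C lay 4 or 5 bp from the TSS, near the edge of that limit. The start sites of eEF2 (chr2L:21682102-21682131, minus strand), eIF4A (chr2L:5981749-5981778, plus strand) and eEF1gamma (chr3R:29220157-29220186, plus strand) are shown from 15 bp upstream, with the CTTT in capitals. That of eEF1gamma had none.
eEF2: gtcgctgcagcgcctcgctCTTTcctgtcg
eIF4A: cttttgcaagatggagcctCTTTtgcttgg
eEF1gamma: gactcctgcagccctgtttccgtcccttct
Other promoter letters were searched on both strands. Motif 1 of M1BP (GGTCACAC) was in 13.0% of the 54 promoters and 7.77% of all, motif 6 (GGTATTTT) in 7.41% and 5.21%, and the TATA box (TATAAA) in 44.4% and 45.5%. The TATA box was in 9 of the 14 promoters with an IDR peak (64.3%) and in 15 of the 40 without (37.5%), a difference that was not tested. The E-box (CAGCTG) was in 7.41% against 17.7%, and GAGAG in 14.8% against 30.2%. Around the 14 summits no E-box was found, against 11.2% of the 1521 peaks, and GAGAG was at 2 (14.3%), against 26.1%. TATAAA was at 4 of them (28.6%), against 34.3%.

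A pair of A+T-rich summits is shown for contrast with the elongation factor sites. The summit upstream of eIF4EHP (chr3R:24109131-24109231, minus strand) lies in a run of A and T, with the TATAAA match and its reverse complement in capitals. The summit of eIF2D (chr3R:29151881-29151981, minus strand) held none of the letters searched within 100 bp.
eIF4EHP: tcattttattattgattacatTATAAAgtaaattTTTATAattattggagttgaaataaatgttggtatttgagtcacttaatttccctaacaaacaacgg
eIF2D: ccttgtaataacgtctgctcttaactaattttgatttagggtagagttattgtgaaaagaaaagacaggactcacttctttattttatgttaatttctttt

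Another pair of elongation factor genes also had peaks at the start site. eEF1alpha1, the main carrier of aminoacyl-tRNA to the ribosome, had a peak of rank 2059 (2R, 11891900 to 11892289) at -27 bp from an internal start site. It ranked 2737, 3608 and 971, so replicate 3 was well above the others. A further eEF1alpha1 peak of rank 3266 (2R, 11890803 to 11891192) lay at -137 bp from the gene's outer start site and at -19 bp from that of ERp60, and ranked 4568, 6555 and 3128. The gene eEF5, whose hypusine-bearing protein (eIF5A in other species) eases peptide bonds that ribosomes form slowly, had a peak of rank 2168 (2R, 24057597 to 24057986) at -6 bp. It ranked 1059, 4019 and 1026, and the replicate 2 summit stood 97 bp from the IDR summit, the largest shift among the 14.

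The strongest peak at any translation factor gene was that of eIF6, whose protein keeps the large ribosomal subunit from joining the small one and is needed to make it. It had rank 48, in the first 1.15% of the IDR list (2R, 23850250 to 23850563), and ranked 24, 77 and 37, high in every replicate. Its pooled signal was 1787 in the authors' units, against 182 for eIF4A, the weakest. The summit lay at -97 bp from the eIF6 start site, in an intron of ytr, and nearer to the TSS of the antisense RNA gene asRNA:CR45928, at +68 bp. Its DRE match was the 5th. The eIF3 subunit gene eIF3m had a peak of rank 3160 (2R, 14164561 to 14164950) in its 5′ UTR at +69 bp, ranked 4150, 5415 and 2464, and the start site of CG8323 lay 226 bp from its own.

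**Figure D2:**
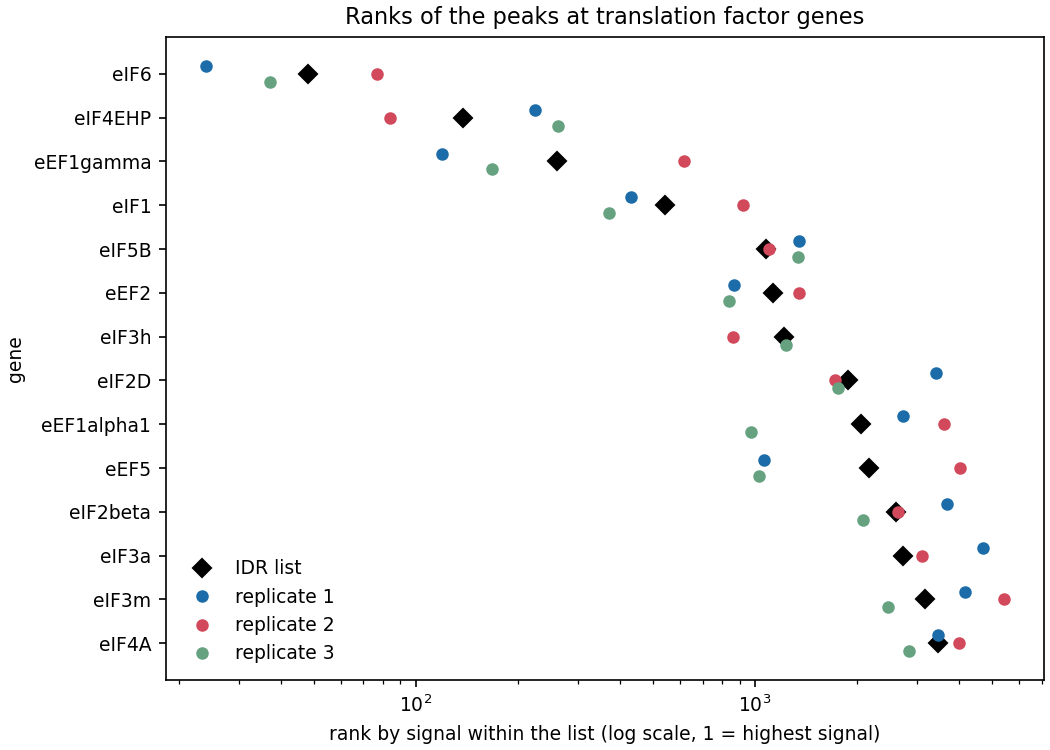
Rank of each of the 14 translation factor peaks (strongest peak per gene) in the IDR list (diamonds) and in replicates 1, 2 and 3 (circles), on a log axis with rank 1 the highest signal. eIF6 stands first in every list, and ranks run from 48 to 3460 in the IDR list.

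The IDR list followed the signal of the 3 replicates pooled, so recurrence of these peaks follows in part from how they were chosen. In all 3 replicates 12 of the 14 were found. The same held for 66 of the 69 ribosomal protein gene peaks and for 1907 of the 1996 protein-coding genes with a peak. The 14 peaks were found in 13, 14 and 13 cases in replicates 1, 2 and 3, and 12, 13 and 13 of them were among the 4187 highest-signal calls of that replicate, called top calls here. Their median rank was 1549.0 in the IDR list, against 1061.0 for the ribosomal protein gene peaks and 1853.0 for all protein-coding genes with a peak. With a 250 bp window the median of the translation factor peaks was 1971.5, and with each summit given to its nearest TSS 2059.0. The medians of all protein-coding genes under these 2 rules are not given here. No stable direction against all genes can therefore be read from the ranks. For the 13, 14 and 13 translation factor peaks found in replicates 1, 2 and 3 the median rank was 1348.0, 1537.5 and 1026.0 (mean 1303.8 ± 259, SD, n = 3). This SD also holds the change in which peaks were found. Top calls of any kind lay at the start sites of 15, 15 and 13 translation factor genes in replicates 1, 2 and 3 (mean 14.3 ± 1.15, SD, n = 3). These are 27.8%, 27.8% and 24.1% of the 54, against 14.6%, 14.0% and 14.4% of all protein-coding genes. In every replicate at once 12 genes (22.2%) had a top call, against 9.04%. They are the 14 genes without eIF3a and eIF3m.

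Calls of any rank were common at all genes. In the pooled list 27 genes (50%) had a call at a TSS, against 44.8% of all protein-coding genes. By number of start sites this was 28.1% against 36.0% for genes with 1 TSS, and 81.8% against 69.2% for those with more. In replicates 1, 2 and 3 the counts were 32 (59.3%), 33 (61.1%) and 25 (46.3%), against 47.8%, 47.5% and 42.9%. In every replicate at once 19 genes (35.2%) had a call, against 29.9%. No call in any of the 5 lists was found at 12 genes (22.2%), against 36.7%.

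Elongation factor summits lay closer to the TSS than most others, though only 4 genes are counted and no test was made. Distances are to the nearest of a gene's start sites, so genes with more of them have more chances of a short distance. All 4 have more than 1 TSS, while the 6 genes with a peak and 1 TSS are all initiation factor genes. The distances were not adjusted for this. The 4 elongation factor summits lay within 50 bp of a TSS, from -27 to -6 bp (median -11.0 bp). So did 56 of the 69 ribosomal protein gene peaks (81.2%, median -7.00 bp). Of the 10 initiation factor peaks 1 did, that of eIF3a, and their median was -117 bp. Over all protein-coding genes with a peak 293 of 1996 (14.7%) lay within 50 bp, and the median was -137 bp. Across the 14 genes the median was -51.5 bp, and 12 lay upstream, as did 1621 of the 1996 over all protein-coding genes with a peak. The replicate summits of the 14 gave medians of -69.0, -48.0 and -95.0 bp (mean -70.7 ± 23.5, SD, n = 3). These medians are over 13, 14 and 13 peaks, so the SD also holds the change in which peaks were found. The median shift between a replicate's summit and the IDR summit was 10, 10 and 15 bp, while the initiation factor summits differed among themselves over -359 to 303 bp. The summit at -359 bp is that of eIF1, which lay at -22 bp from the TSS of RpL28.

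**Figure D3:**
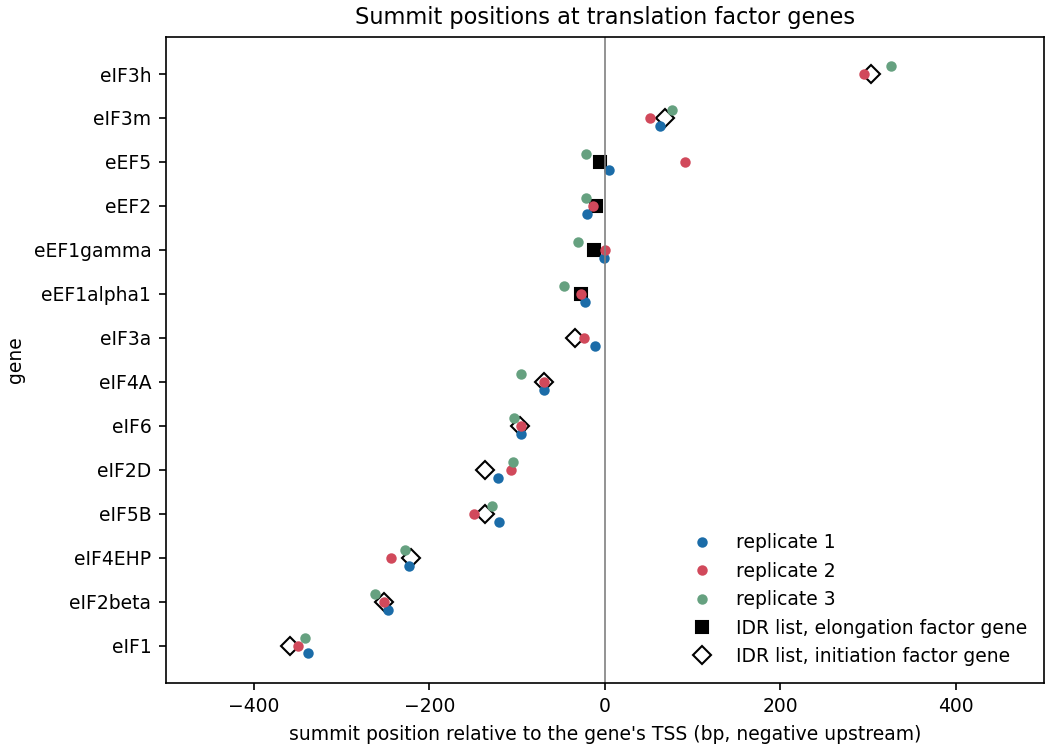
Position of the IDR summit relative to the TSS in bp (negative upstream) for the 14 genes, with filled squares for elongation factor genes and open diamonds for initiation factor genes, and the replicate summits as circles. The 4 squares sit from -27 to -6 bp, while the diamonds spread from -359 to 303 bp.

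Of the 14 summits 6 lay within 500 bp of another gene's TSS as well (42.9%, against 50.7% of all protein-coding genes with a peak). Another protein-coding gene was within reach of 5 (35.7%, against 46.8%). The translation factor gene was the nearest in 11 cases. At eIF6, eIF4EHP and eIF1 another gene was nearer. The strongest peak of each of the 4 elongation factor genes was alone.

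Replicate 2 ranked many of these peaks lower than the other replicates did, and base composition moved with this. Of the 12 peaks found in all 3 replicates, 8 (66.7%) had their lowest rank in replicate 2, including all 4 of the elongation factors, against 84.8% for ribosomal protein gene peaks and 32.3% over all protein-coding genes. eIF4EHP, eIF5B and eIF2D had their highest rank there. The median A+T within 50 bp of the summit was 50% for the elongation factors, 57.9% for the initiation factors, 53.5% for ribosomal protein genes and 66.3% for all protein-coding genes with a peak. Among the 1461 start-site peaks found in all replicates, 59.7% of those under 50% A+T ranked lowest in replicate 2. This fell to 55.1% from 50% to 60%, 26.3% from 60% to 70% and 13.4% from 70% up. Translation factor peaks ranked lowest there in 2 of 2, 5 of 7 and 1 of 3 cases in the classes that held any, the last being eIF3m. Top calls had a mean A+T of 61.0%, 66.6% and 63.9% in replicates 1, 2 and 3. The part of base composition in these ranks was not tested.

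**Figure D4:**
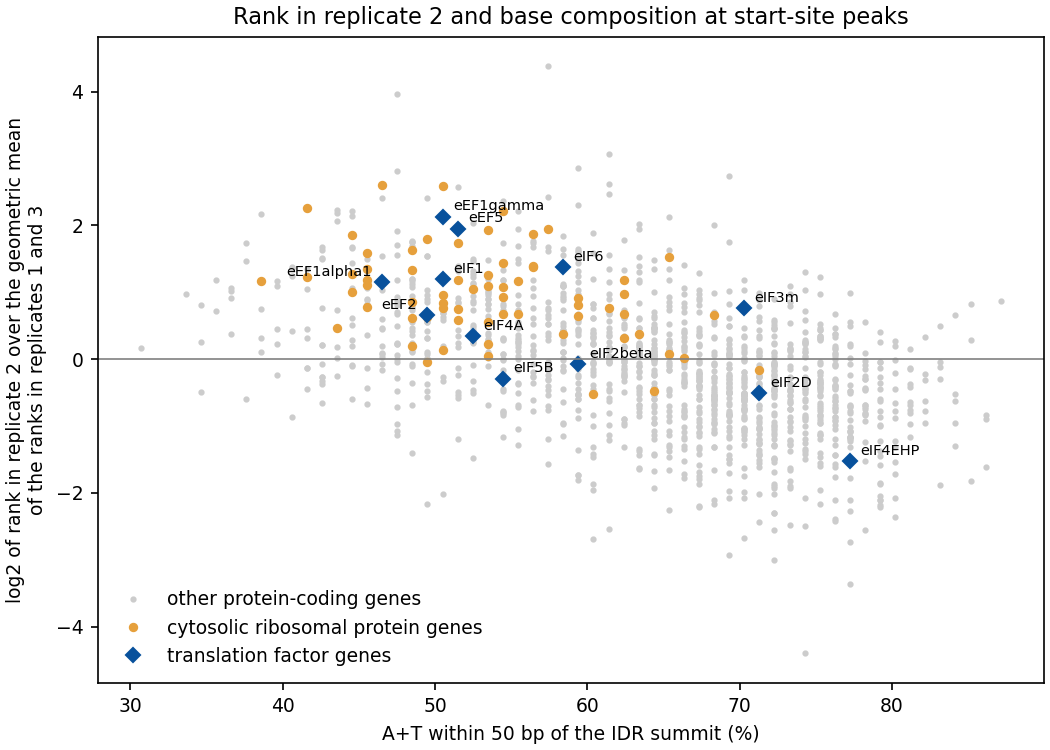
Rank in replicate 2 relative to replicates 1 and 3 (log2 of the ratio to their geometric mean, above 0 meaning a weaker rank in replicate 2) against the A+T share within 50 bp of the IDR summit, for the 1461 start-site peaks found in all replicates. Translation factor genes are blue diamonds, and 8 of the 12 had their lowest rank in replicate 2.

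The 40 genes without an IDR peak include many of the core factors. Of these 13 had a pooled call, and 6, 9, 13 and 12 had calls in 3, 2, 1 and 0 replicates. The shares among all protein-coding genes without an IDR peak are not given here. The counts and the genes named below are therefore a description and cannot be read against all genes. Nearest to passing was eIF2A, whose protein can bring initiator tRNA by a route apart from eIF2. It had a pooled rank of 4592 at -22 bp and ranked 2731, 4525 and 7135. eIF4G2, a paralog of the eIF4G scaffold known from the fly male germ line, had a pooled rank of 5201 and ranked 5820, 5433 and 4262. Both release factor genes were called in every replicate below the top calls. eRF1, which reads stop codons, had a pooled rank of 5671 and ranked 14810, 6246 and 5219. The gene of its GTPase partner, eRF3, had a pooled rank of 7149 and ranked 10460, 5629 and 4634. A top call in 1 replicate was found at eIF2A, eIF2Bepsilon, eIF3c (2752 in replicate 2) and eIF4E1 (4026 in replicate 2).

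By complex and paralog family the counts were too small to read against the 14.3% of all protein-coding genes, and they are given as a description. Of the 3 eIF2 subunit genes, eIF2beta had a peak. eIF2alpha, the target of the stress kinases, had a pooled call of rank 29995 at the foot of the list and ranked 17747 in replicate 2. eIF2gamma had only a replicate 1 call of rank 18087. None of the 5 genes of eIF2B, the exchange factor of eIF2, had an IDR peak. The eIF2Bdelta gene was called in every replicate (7494, 16503 and 13824), eIF2Bgamma in replicates 1 and 2 (8071 and 29891), eIF2Balpha in replicate 1 (10922) and eIF2Bbeta in replicate 3 (20299). In the pooled list eIF2Bdelta ranked 24744 and eIF2Bgamma 13101. Of the 7 cap-binding genes 1 had a peak, eIF4EHP, the same share as over all protein-coding genes (14.3%). The main one, eIF4E1, had a pooled rank of 10858 and ranked 4026 and 14839 in replicates 2 and 3, eIF4E6 ranked 21811 and 15138 there, eIF4E4 ranked 25776 in replicate 3, and eIF4E3, eIF4E5 and eIF4E7 had no call. The main scaffold gene eIF4G1 had none either, and it lies on chromosome 4, which held 13 IDR peaks in all. The share of chromosome 4 genes with a peak is not given here, and whether 13 is few for its genes was not tested.

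In the eIF3 complex, eIF3b had a pooled rank of 19067 and was called in every replicate (27970, 7930 and 8993), and eIF3c ranked 7844 and 2752 in replicates 1 and 2. eIF3k had a pooled rank of 12803 and ranked 14266 and 11001 in replicates 2 and 3. eIF3l ranked 11986 and 19483 in replicates 1 and 2, and eIF3j ranked 23646 in replicate 2. Of the paralog pairs, eIF3f1 and eIF3f2 had a replicate 1 call each (25866 and 20472), eIF3d1 had a replicate 3 call (23865), and eIF3d2, eIF3g1 and eIF3g2 had none. The other genes with no call in any list were eIF3e, eIF3i, eIF4B, eIF4H2 and eEF1delta, and all 12 such genes have 1 TSS.

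Among the remaining initiation factor genes, eIF1A, which works with eIF1 in scanning, had a pooled rank of 13056 and ranked 10452 and 9777 in replicates 1 and 2. The GTPase-activating factor gene eIF5 had a pooled rank of 28083 and ranked 13996 in replicate 2. The helicase cofactor gene eIF4H1 had a pooled rank of 16100 and ranked 11018 and 17442 in replicates 1 and 2. In elongation, the exchange factor gene eEF1beta ranked 12823 and 5504 in replicates 1 and 2, eEFSec, for the selenocysteine elongation factor, ranked 16626 in replicate 2, and eEF1alpha2, the paralog of eEF1alpha1, ranked 24934 in replicate 1.

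**Figure D5:**
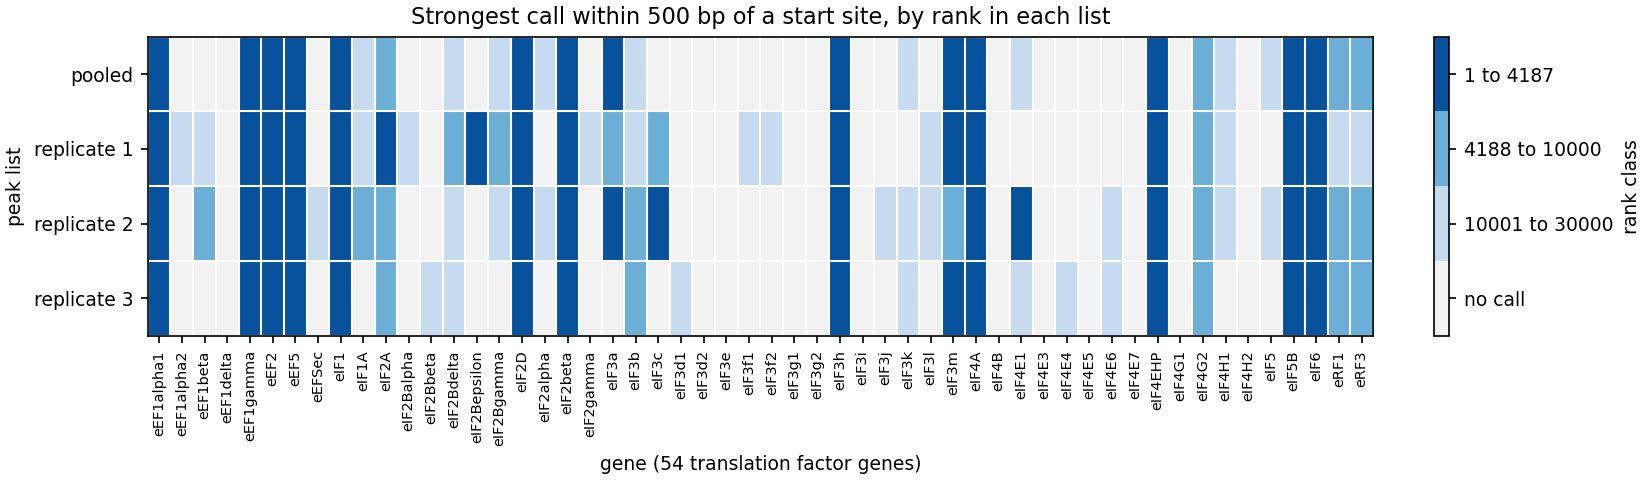
Class of the strongest call within 500 bp of a TSS of each of the 54 translation factor genes in the pooled list and the 3 replicate lists, from dark blue (among the 4187 highest-signal calls) to grey (no call). Dark columns that run through all 3 replicates are 12 genes, and 12 columns are grey throughout.

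At the edge of the 500 bp limit, the farthest summits inside were those of eIF1 at 359 bp and eIF3h at 303 bp. Just outside stood eIF2Bepsilon, 503 bp from a peak of rank 3672 (X, 1923182 to 1923571) that lay nearest to Ocrl and ranked 2847 and 3487 in replicates 1 and 2. Next came eIF2Bbeta, 684 bp from the strongest peak of the whole list, which lay at -35 bp from Ugalt and ranked 1 in every replicate. Beyond that was eIF3d1, 1342 bp from a peak of rank 736.

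Few distal summits, over 500 bp from any TSS, had a translation factor gene as the nearest. They were 2 genes (3.70%), against 9.17% of protein-coding genes. That of eIF4E5 lay at -12573 bp from its start site, in an intron of CG32365 (3L, 7882233 to 7882410), with rank 1442 and replicate ranks of 771, 2674 and 1194. That of eIF5B lay in its own intron, 10047 bp downstream of its TSS (3L, 3450361 to 3450750), with rank 2719 and replicate ranks of 4303, 2435 and 3559. With calls of any rank, 18 translation factor genes (33.3%) were the nearest gene of a distal summit in the pooled list, against 35.7% of all protein-coding genes. In replicates 1, 2 and 3 they were 22 (40.7%), 16 (29.6%) and 13 (24.1%), against 39.1%, 36.2% and 39.9%. The eIF5B gene held 12 of the 40 pooled distal summits.

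Of 30 other genes that act in translation or its control, 8 (26.7%) had a peak at a TSS, against 14.3% of all protein-coding genes. In the 2093 IDR peaks of highest signal 3 of the 30 (10%) did, near the 7.84% of all protein-coding genes. The gene larp, for an RNA-binding protein of mRNAs of the translation machinery, had 3 IDR peaks at its start sites, the strongest of rank 49 (3R, 28326441 to 28326760), at -336 bp, with replicate ranks of 60, 50 and 43. Rack1, a ribosome-bound scaffold gene, had rank 888 (2L, 7827220 to 7827341) at +7 bp and ranked 432, 1684 and 814, a summit also within reach of mts. The others were Larp4B, Lk6, Thor, pelo, RpS6 and Gcn2, with ranks from 1794 to 3377. Thor, the eIF4E-binding repressor of cap-dependent initiation, had rank 2739 at -26 bp and ranked 1004, 7257 and 1833, replicate 2 being far the lowest. No IDR peak lay at the start sites of PEK, which like Gcn2 encodes an eIF2alpha kinase, or of crc, the fly ATF4 gene.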

How the data were processed

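ChIP-seq peak lists were analysed for 3 biological replicates of 1 group, with the pooled and IDR lists of the series. The deposited signal of a peak comes from the authors, with no normalization named, and served only for ranks inside a list. Ties were broken by the −log10 q values that the authors deposited. Summit offsets are as the authors deposited them. Per the labels the build is dm6. Aligner, caller and IDR cutoff: not given in the sources used here. Library depth is unknown, so no interval for counting error was given.

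Genes and TSS came from Ensembl release 115 (BDGP 6.54), with 18277 genes and 23694 distinct TSS on 7 chromosomes, and sequence from the RefSeq genome of the same chromosome lengths. A summit counted for every gene with a TSS within 500 bp. A peak's counterpart in a replicate was the nearest summit within 250 bp. A+T was taken within 50 bp and motifs within 100 bp of the summit. Top calls were the 4187 of highest signal per replicate. Python 3.11.15, numpy 2.4.6 and matplotlib 3.10.9 were used, and the assignment code was tested on simulated data.

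The genes and lists were chosen with earlier results of these data known, and the rule on counterparts and the A+T classes after their values were seen, so no test was made and shares stand beside those of all protein-coding genes. Named in full were members with an IDR peak at a TSS, those with a distal peak, those just outside the 500 bp limit and other translation genes ranked to 1000. Lower-ranked genes are given by family. Further names among the other translation genes were chosen after their values were seen. That list held 32 symbols, of which 30 matched. Spread between the replicates is the only error given.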

Additional observations from a re-analysis of the deposited data

How the results depend on the processing

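Counts were recomputed with other windows, gene assignments, lists and replicates left out. The 14 genes with an IDR peak became 9 in the higher-signal 2093 peaks and 27 with pooled calls of any rank, and lay between 11 and 16 under the other windows and assignments (against 8% to 17.6% of all protein-coding genes). The 10 initiation factor genes became 6 in the higher-signal peaks. The 12 genes with a top call in every replicate became 6 with fewer top calls, 2093 per replicate. The share of all protein-coding genes at that cut is not given here, so the 6 cannot be read against all genes. With all calls the 12 became 19, against 29.9% of all protein-coding genes. The median rank became 2059.0 with each summit given to its single nearest TSS, 1971.5 with a 250 bp window and 1026.0 in replicate 3. The median offset became -83.0 bp with a 1000 bp window and -95.0 bp in replicate 3. Genes with a distal summit went from 2 to 4 beyond 250 bp and to 1 in the higher-signal peaks, and lay between 1 and 2 without 1 replicate. The shares of all protein-coding genes under these distal settings are not given either. With other windows or a replicate left out, the 8 other translation genes and the 4 elongation factor genes moved by less than 1.5 times, and the latter became 3 in the higher-signal peaks. Without replicate 1, 2 or 3, top calls in both other replicates lay at 12, 13 and 12 genes (against 10.9%, 10.5% and 10.3% of all protein-coding genes). The cause of these changes was not tested. No paired analysis was possible because there is 1 group. Unknown depth limits what a missing call means.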
